A study of Danio rerio with 48 samples.

Results

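Retinas of zebrafish after 14 days of chronic low light (14 dpl, days post light onset) were set against retinas of dark-adapted fish that had not yet met the light (0 h). The sample labels gave 6 libraries at each time-point, 12 of the 48 libraries of the chronic low light (CLL) experiment, and each library was the 3′ mRNA-seq of 1 left-eye retina from 1 fish. All fish in both groups were albino (alb) adults 6 to 9 months old, which lack the dark pigment that shades the retina, and they had lived in 14 h of light at 250 lux and 10 h of dark a day at 28.5 °C before 24 h in a dark box. The 14 dpl fish then spent 14 days under 2 halogen lamps of 250 W, about 5000 lux in total, with no dark phase, whereas the 0 h fish were taken as the dark period ended. Per the study's methods, animals were collected in 2 rounds, and remnants of the retinal pigment epithelium can stay on a dissected retina. Being in the light, the 14 days themselves and the loss of the day-night cycle differed together between the groups and cannot be told apart.

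Vertebrate rods and cones catch light in an outer segment, where an opsin activates a G protein (transducin), transducin activates a phosphodiesterase, and the fall in cyclic GMP closes a cation channel. Opsin kinases and arrestins end the opsin's activity, recoverin holds the kinase back, and guanylate cyclases renew cyclic GMP so that the channel reopens. The pigment epithelium behind the photoreceptors (PRs) regenerates the chromophore and takes up shed outer segment tips. In zebrafish, rods are added through adult life by dividing progenitors that derive from Müller glia (MG), the radial glia of the retina, and retinal cells carry a clock that light can reset directly.

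Values are edgeR pseudocounts, that is, reads per gene adjusted by the authors to a common library size. The libraries summed to 1632599 to 1634449 at 14 dpl and to 1630288 to 1633004 at 0 h, so they carry no sequencing depth and error was read from the spread between retinas. Libraries fell into 2 sets by the form of their names, 3 of each group in each set, and library set was a term of the fit unless stated. Of the markers that check the tissue, 5 rod genes summed to 8603 to 17064 at 14 dpl and 58405 to 69940 at 0 h and 5 cone genes to 34762 to 41572 at 14 dpl and 39643 to 50672 at 0 h. Lens and egg markers summed to at most 6.00 at 14 dpl and 8.86 at 0 h, whereas 3 muscle markers summed to 253.7 in 14 dpl replicate 1 and 337 in replicate 3, against at most 45.4 at 0 h. Cornea and skin keratins summed to 129 to 214 at 14 dpl and 68.6 to 114 at 0 h, with 1 of 3 called, and the part of other tissues in the results was not tested. Among the 0 h libraries, 2 could not be tied to a replicate number, 1 in each set. The unnumbered library of set 1 held the highest 0 h value of pde6a, saga, rcvrn3, apoeb, csf1ra and lgals9l1.

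How far had the retina moved from its dark baseline after 14 days of light? Of 11395 genes tested with limma (Benjamini-Hochberg adjusted p under 0.05 and at least 2-fold), 283 were higher at 14 dpl than at 0 h (2.48%) and 182 were lower (1.6%), together 4.08%. By the adjusted p alone, the rule used below for lists and single genes, 637 were higher (5.59%) and 263 lower (2.31%), together 7.9%. Of these calls, 636 of the 637 and all 263 had the same sign in library set 1 and in library set 2, the exception being dhrs12. The calls were made on both sets together, which favours genes that agree between them, so this count is no separate test. In 418 genes all 6 libraries at 14 dpl lay above all 6 at 0 h (3.67%), and in 156 all lay below (1.37%). The median log2 fold change over all tested genes was 0.036. With a set alone, by the adjusted p and the 2-fold minimum, 227 genes were higher and 76 lower in set 1, and 224 were higher and 287 lower in set 2.

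**Figure D1:**
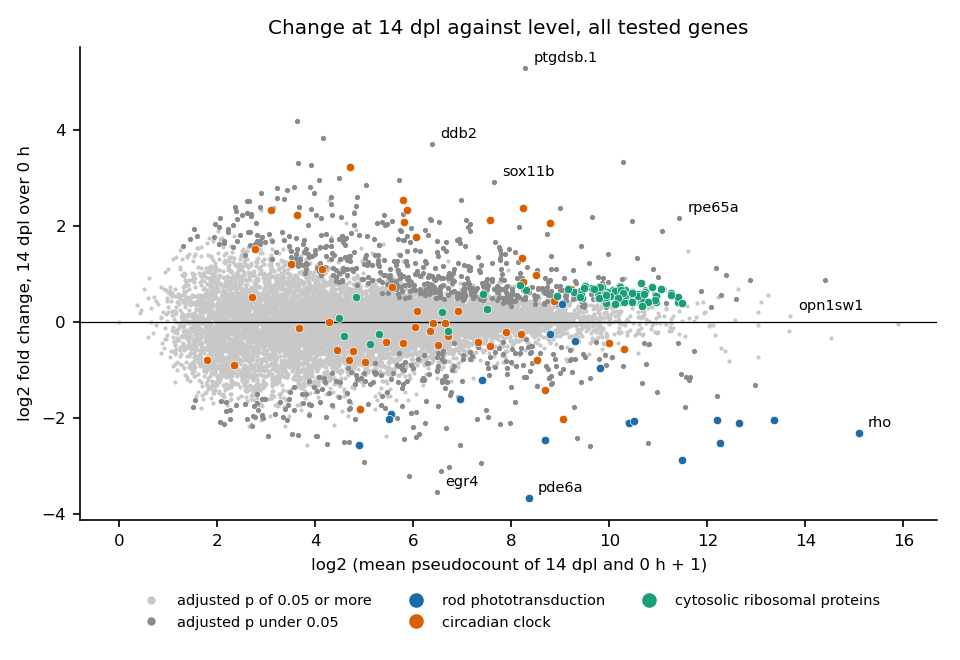
Log2 fold change at 14 dpl over 0 h (y axis) against the log2 mean pseudocount of both groups plus 1 (x axis) for the 11395 tested genes, 1 point a gene, with 3 gene lists in colour. Rod phototransduction genes sit low across the range of levels, cytosolic ribosomal protein genes sit in a narrow band above 0, and circadian clock genes lie on both sides.

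The genes that fell the most included rod genes and genes of neuronal activity, and those that rose the most had mixed functions. The 10 largest falls of the same sign in both sets were the rod genes pde6a, gnat1 and grk1a, the guanylate cyclase gucy2f, the synaptic genes cplx4c and cabp4, phosducin (pdca) and the immediate early genes egr4 and npas4a, with zgc:114046 as the tenth. The largest rise was in ptgdsb.1, a lipocalin-type prostaglandin D synthase. Its value was 408 to 784 with a median of 589 at 14 dpl and 5.31 to 26.3 with a median of 16.23 at 0 h. Every 14 dpl library lay above every 0 h library, and the log2 fold change was 5.29 ± 0.54 (adjusted p = 3.26e-10), 39.1-fold on this scale. Values after ± are standard errors of the fit. The next was fam213b, listed in RefSeq as prxl2b, a thioredoxin-like prostaglandin F synthase, at 4.2 ± 0.30 (adjusted p = 3.82e-15). Another of the 10 largest rises was ddb2, which recognises ultraviolet-type damage in DNA, at 3.71 ± 0.22 (adjusted p = 4.78e-18). Others among the 10 largest rises were the DASH cryptochrome cry-dash at 3.24, the cytokine subunit ebi3 at 3.32 and thioredoxin (txn) at 2.97, and 3 had clone-type names (zgc:158404, zgc:64022 and zgc:73226).

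Rod phototransduction genes were lower almost throughout. Of 19 tested members, 16 were lower at 14 dpl than at 0 h (84.2%) and 0 higher, against 2.31% and 5.59% of all tested genes, and the median log2 fold change was -2.05. In 14 of the 19 all 6 libraries at 14 dpl lay below all 6 at 0 h, against 1.37% of all genes. The list was lower in either set, with medians of -1.85 in set 1 and -2.19 in set 2, and 15 or 16 members passed with any 1 library left out. These are measurements of whole retina, in which fewer rods and less RNA per rod cannot be told apart.

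The pathway was lower at each step from the pigment to the channel. Rhodopsin (rho), the rod visual pigment, was 7927 to 15542 with a median of 11670 at 14 dpl and 52016 to 64130 with a median of 59713 at 0 h. The lowest 0 h library was still more than any 14 dpl library, and the log2 fold change was -2.32 ± 0.28 (adjusted p = 2.07e-08). The transducin α subunit gnat1 was 389 to 878 with a median of 772 at 14 dpl and 4355 to 5604 with a median of 4898 at 0 h, again without overlap, and its log2 fold change was -2.88 ± 0.27 (adjusted p = 2.67e-11). The β subunit genes gnb1a and gnb1b and the γ subunit gngt1 were lower by the same test, at -2.10, -2.05 and -2.52. Of the phosphodiesterase subunits, the catalytic pde6a was the lowest of all rod genes in its ratio to 0 h. It was 29.9 to 69.0 with a median of 45.3 at 14 dpl and 442 to 1012 with a median of 582 at 0 h, and its log2 fold change was -3.67 ± 0.34 (adjusted p = 2.54e-11), with -3.90 in set 1 and -3.45 in set 2. The inhibitory γ subunits pde6g and zgc:112320, which RefSeq names pde6ga, changed by -2.05 and -2.11. The channel subunit si:dkey-22i16.2, named cnga1a in RefSeq, was 337 to 905 with a median of 539 at 14 dpl and 1734 to 3199 with a median of 2050 at 0 h (log2 fold change -2.07 ± 0.24, adjusted p = 5.24e-09).

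Genes that shut off, time or reset the rod response were lower too, apart from 1 copy each of arrestin and of rgs9. The rhodopsin kinase grk1a was 0 to 14.1 with a median of 10.6 at 14 dpl and 15.7 to 100 with a median of 43.4 at 0 h, and it changed by -2.57 ± 0.51 (adjusted p = 0.000379). Recoverin (rcvrna), which restrains that kinase, changed by -2.45 ± 0.37 (adjusted p = 3.68e-06), while the guanylate cyclase gc2 and the cyclase activator guca1b changed by -1.92 ± 0.43 (adjusted p = 0.00162) and -1.60 ± 0.28 (adjusted p = 6.77e-05). In the complex that speeds transducin's shut-off, rgs9b changed by -1.20 and its anchor rgs9bp by -2.02. With library set 1 alone the calls of gc2 (log2 fold change -0.59, adjusted p = 0.566 in limma), grk1a and rgs9b were lost. The fitted change of gc2 in set 2 was -3.25, and its groups overlapped. Of the rod arrestins, which bind activated rhodopsin, sagb changed by -0.95 ± 0.30 (adjusted p = 0.0377), a call lost without 14 dpl replicate 1, 2, 3 or 6, 0 h replicate 2 or 3 or the unnumbered 0 h library of set 1. The other copy, saga, did not follow. The value of saga was 202 to 562 with a median of 431 at 14 dpl and 316 to 961 with a median of 401 at 0 h, the 2 groups overlapped, and its log2 fold change was -0.24 ± 0.27 (adjusted p = 0.656). The other 2 members that did not pass were rgs9a, which cones share, at -0.39 ± 0.28 (adjusted p = 0.448), and the retinol dehydrogenase rdh8a at 0.37 ± 0.15 (adjusted p = 0.139).

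**Figure D2:**
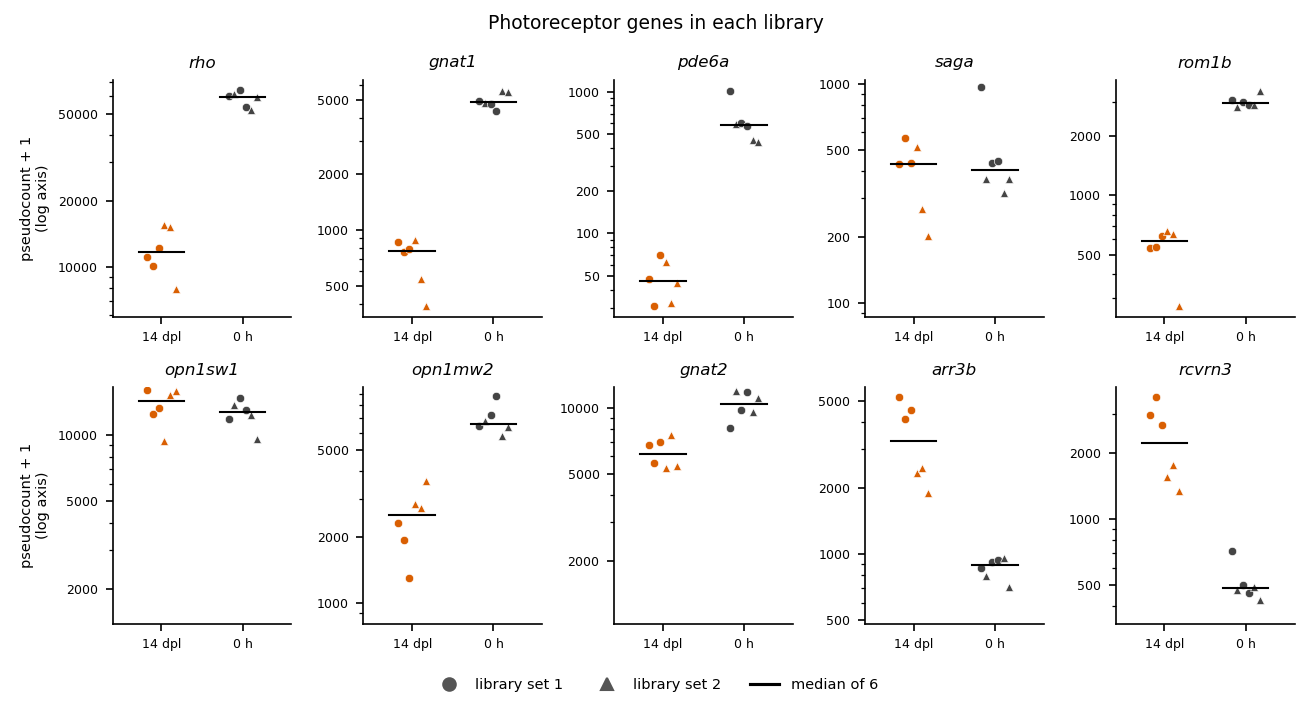
Pseudocount plus 1 (y axis, log scale) of 10 photoreceptor genes in each of the 6 libraries at 14 dpl and the 6 at 0 h, with the library set by symbol and the median of 6 as a bar. For rho, gnat1, pde6a, rom1b, opn1mw2 and gnat2 all 14 dpl libraries lie below all 0 h libraries, for arr3b and rcvrn3 they lie above, and for saga and opn1sw1 the groups overlap.

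Several PR genes outside the transduction list were lower as well. The disc rim genes rom1a and rom1b, partners of peripherin, changed by -2.21 ± 0.32 (adjusted p = 1.77e-06) and -2.52 ± 0.26 (adjusted p = 4.11e-10). The values of rom1b were 273 to 655 with a median of 582 at 14 dpl and 2809 to 3417 with a median of 2943 at 0 h, with no overlap. Among 16 outer segment structure genes, 4 were lower (25%) and 2 higher (12.5%), against 2.31% and 5.59% of all genes. Of the higher pair, unc119b, a carrier of lipid-tagged transducin, was 1857 to 2473 with a median of 2178 at 14 dpl and 764 to 1003 with a median of 820.5 at 0 h (log2 fold change 1.33 ± 0.15, adjusted p = 2.62e-09). The other, arl3l1, a small GTPase that releases such cargo, changed by 0.86 ± 0.16 (adjusted p = 0.000126). Phosducin (pdca), which binds transducin βγ in the inner segment, was 142 to 291 with a median of 232 at 14 dpl and 1235 to 1447 with a median of 1302 at 0 h, and it changed by -2.58 ± 0.27 (adjusted p = 3.74e-10). Of 33 tested genes of the PR synapse and bipolar cells, 2 were lower (6.1%, against 2.31% of all genes), cabp4 and cplx4c. The 1 higher (3.0%, against 5.59% of all genes) was cabp5b at 0.54. That rise was lost without 14 dpl replicate 1, 3, 4 or 5, 0 h replicate 3 or 6 or the unnumbered 0 h library of set 1. The calcium sensor of the PR terminal cabp4 was 19.4 to 65.6 with a median of 34.6 at 14 dpl and 179 to 412 with a median of 307 at 0 h (log2 fold change -2.95 ± 0.27, adjusted p = 1.22e-11). The complexin cplx4c, which acts in transmitter release, was 8.33 to 28.5 with a median of 21.8 at 14 dpl and 132 to 229 with a median of 154 at 0 h (log2 fold change -3.11 ± 0.35, adjusted p = 3.57e-09). Neither gene had overlapping groups. Bipolar cell markers (vsx1, cabp5a, grm6b and trpm1b) summed to 996 to 1405 at 14 dpl and 895 to 1303 at 0 h, with 0 of 4 called.

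Cone opsins were split. Of 8, 4 were lower (50%, against 2.31% of all genes), and they were tandem copies of the green opsin family and the red opsin opn1lw1. How reads shared by such copies were assigned is not given in the sources used here. The green opsin opn1mw3 was 235 to 1335 with a median of 434 at 14 dpl and 1428 to 3586 with a median of 1849 at 0 h (log2 fold change -2.09 ± 0.43, adjusted p = 0.000532). Its copy opn1mw2 was 1294 to 3601 with a median of 2509 at 14 dpl and 5760 to 8783 with a median of 6574 at 0 h (log2 fold change -1.55 ± 0.46, adjusted p = 0.0235). In neither did the groups overlap. The values of opn1mw4 and opn1lw1 overlapped, and their log2 fold changes were -1.47 ± 0.40 (adjusted p = 0.0139) and -1.31 ± 0.37 (adjusted p = 0.0176). The call of opn1mw2 was lost without 14 dpl replicate 2 (adjusted p = 0.0501) or replicate 3 (adjusted p = 0.0792), and that of opn1lw1 without 14 dpl replicate 1 (adjusted p = 0.0511) or the unnumbered 0 h library of set 1 (adjusted p = 0.0559). With set 1 alone, 4 opsins were lower, and with set 2 alone 0 were.

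The other opsins did not pass the test. The ultraviolet opsin opn1sw1 was 9381 to 16156 with a median of 14313 at 14 dpl and 9577 to 14873 with a median of 12741 at 0 h, with a log2 fold change of 0.12 ± 0.28 (adjusted p = 0.857). The blue opsin opn1sw2 was 2928 to 5859 with a median of 3781 at 14 dpl and 5342 to 8429 with a median of 7182 at 0 h (log2 fold change -0.82 ± 0.30, adjusted p = 0.0864), and it passed (adjusted p = 0.0467) without 14 dpl replicate 6. The green opsin opn1mw1 was 966 to 5511 with a median of 2171 at 14 dpl and 404 to 3173 with a median of 1996 at 0 h (log2 fold change 0.69 ± 0.92, adjusted p = 0.721). The red opsin opn1lw2 was 1893 to 8542 with a median of 4100 at 14 dpl and 264 to 4530 with a median of 1435 at 0 h (log2 fold change 1.48 ± 0.67, adjusted p = 0.188). Libraries of 1 group differed several-fold in these 2 genes at either time-point.

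Cone transduction genes showed no common direction. Of 24 tested, 3 were higher (12.5%) and 3 lower (12.5%), against 5.59% and 2.31% of all genes, with a median log2 fold change of -0.17. The cone arrestins, which quench cone opsins, were higher. Of these, arr3b was 1902 to 5217 with a median of 3289 at 14 dpl and 708 to 960.4 with a median of 889.5 at 0 h (log2 fold change 1.90 ± 0.28, adjusted p = 2.23e-06), with no overlap. The second, arr3a, changed by 0.87 ± 0.24 (adjusted p = 0.0165), and this call was lost without 0 h replicate 6 (adjusted p = 0.0578). The recoverin rcvrn3 was 1345 to 3587 with a median of 2225 at 14 dpl and 424 to 714 with a median of 481 at 0 h (log2 fold change 2.11 ± 0.24, adjusted p = 3.38e-09). At the other end, the guanylate cyclase gucy2f, which renews cyclic GMP, was 2.35 to 20.4 with a median of 12.4 at 14 dpl and 81.4 to 132 with a median of 106 at 0 h (log2 fold change -3.22 ± 0.38, adjusted p = 1.11e-08). Whether the signal of gucy2f came from cones or from rods was not tested. The opsin kinase grk1b was 155 to 442 with a median of 256 at 14 dpl and 647 to 1294 with a median of 925 at 0 h (log2 fold change -1.78 ± 0.51, adjusted p = 0.0192). All 14 dpl libraries of both lay below all 0 h libraries. The cone transducin gnat2 was 5336 to 7512 with a median of 6188 at 14 dpl and 8056 to 11940 with a median of 10425 at 0 h. These groups did not overlap either, yet the log2 fold change of -0.73 ± 0.30 (adjusted p = 0.145) did not pass. The phosphodiesterase pde6c was 1919 to 6520 with a median of 4398 at 14 dpl and 5534 to 7512 with a median of 5810 at 0 h (log2 fold change -0.60 ± 0.26, adjusted p = 0.165).

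Among 24 transcription factors of PRs, 4 were lower (16.7%) and 2 higher (8.3%), against 2.31% and 5.59% of all genes. The retinal homeobox genes, needed for eye and PR formation, made up 3 of the 4 lower. The values of rx1 were 287 to 621 with a median of 380.5 at 14 dpl and 722 to 1237 with a median of 909 at 0 h (log2 fold change -1.26 ± 0.25, adjusted p = 0.000359), without overlap. The changes of rx2 and rx3 were -1.25 ± 0.31 (adjusted p = 0.00439) and -1.08 ± 0.22 (adjusted p = 0.00057). The nuclear receptor nr2f6b was 105 to 267 with a median of 235 at 14 dpl and 355 to 676 with a median of 556 at 0 h (log2 fold change -1.33 ± 0.27, adjusted p = 0.000372). The repressor prdm1a was higher, at 17.9 to 74.6 with a median of 25.6 at 14 dpl and 5.03 to 12.7 with a median of 9.31 at 0 h (log2 fold change 1.79 ± 0.32, adjusted p = 6.6e-05), again without overlap. The other rise was in six6b at 0.51, and of the fits with 1 library left out the count of 2 held only without 14 dpl replicate 2, 0 h replicate 3 or the unnumbered 0 h library of set 2. The PR regulator crx was 1300 to 1732 with a median of 1407 at 14 dpl and 1515 to 1948 with a median of 1774 at 0 h (log2 fold change -0.26 ± 0.12, adjusted p = 0.199). The rod determinant nr2e3 was 40.6 to 70.5 with a median of 59.1 at 14 dpl and 17.5 to 48 with a median of 28.4 at 0 h (log2 fold change 0.98 ± 0.38, adjusted p = 0.111). Neither passed, and for nr2e3 the medians stood the other way to those of the rod genes.

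The time-points on either side of 14 dpl were tested against it directly. Between 14 and 28 dpl, 0 genes passed (0% of 11395), while 891 had an unadjusted p under 0.05 in limma, and 1 passed without 14 dpl replicate 1 and 2 without replicate 2 or replicate 6. Between 14 and 10 dpl, 26 genes were lower at 14 dpl (0.228%) and 2 were higher (0.0176%). With the 2-fold minimum 26 genes passed, both directions together, and with 1 library at 14 dpl left out between 10 and 40 did, 40 without replicate 1, 17 without replicate 4, 12 without replicate 5 and 10 without replicate 6. Of the 26 lower genes, 5 were rod phototransduction genes, in a list of 19. Between 14 and 10 dpl pde6a was 29.9 to 69.0 with a median of 45.3 at 14 dpl and 66.2 to 412 with a median of 169 at 10 dpl, with a log2 fold change of -1.79 ± 0.34 (adjusted p = 0.00744). The values of gnat1 gave -1.32 ± 0.27 (adjusted p = 0.0144), pde6g gave -1.05 ± 0.22 (adjusted p = 0.0153), gnb1b gave -1.01 ± 0.23 (adjusted p = 0.0305) and si:dkey-22i16.2 gave -1.34 ± 0.24 (adjusted p = 0.00284). The change in rho over the same days was -0.80 ± 0.28 (adjusted p = 0.212), which did not pass.

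Other genes lower at 14 than at 10 dpl included PR genes and genes that mark other cells. The synaptic calcium sensor cabp4 had the lowest adjusted p, at 19.4 to 65.6 with a median of 34.6 at 14 dpl and 52.0 to 229 with a median of 127 at 10 dpl (log2 fold change -1.73 ± 0.27, adjusted p = 0.000497). Phosducin (pdca) gave -1.42 ± 0.27 (adjusted p = 0.0053), mdm1, a microtubule-binding protein known from retinal degeneration in mice, gave -1.18 ± 0.21 (adjusted p = 0.00284), and the disc protein prom1a -1.98 ± 0.44 (adjusted p = 0.027). The cyclase activator guca1a was 5.44 to 29.8 with a median of 27.8 at 14 dpl and 83.1 to 230.4 with a median of 118.9 at 10 dpl, a log2 fold change of -2.70 ± 0.48 (adjusted p = 0.00284), while its 0 h libraries lay at 6.03 to 15.7. Of these, guca1a and prom1a did not differ in the test between 14 dpl and 0 h. Other genes were aanat1, which makes melatonin's precursor (log2 fold change -1.18 ± 0.26, adjusted p = 0.027), the melanopsin opn4b (log2 fold change -1.22 ± 0.28, adjusted p = 0.0305), the macrophage growth factor receptor csf1ra (log2 fold change -2.04 ± 0.47, adjusted p = 0.0327) and the neurogenic factor sox11b (log2 fold change -1.15 ± 0.27, adjusted p = 0.0373). The genes higher at 14 than at 10 dpl were tp53inp2, a regulator of autophagy (log2 fold change 1.52 ± 0.34, adjusted p = 0.027), and the nucleoside diphosphate kinase nme2b.2 (log2 fold change 2.14 ± 0.45, adjusted p = 0.0216). Of the pair, tp53inp2 was also higher than at 0 h (log2 fold change 1.81 ± 0.34, adjusted p = 0.000148). The values of nme2b.2 were 6.34 to 76.6 with a median of 17.1 at 14 dpl and 1.29 to 7.235 with a median of 5.02 at 10 dpl. Its groups overlapped, and it did not pass against 0 h, where it was 14.4 to 32.7 (log2 fold change -0.07 ± 0.45, adjusted p = 0.953).

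**Figure D3:**
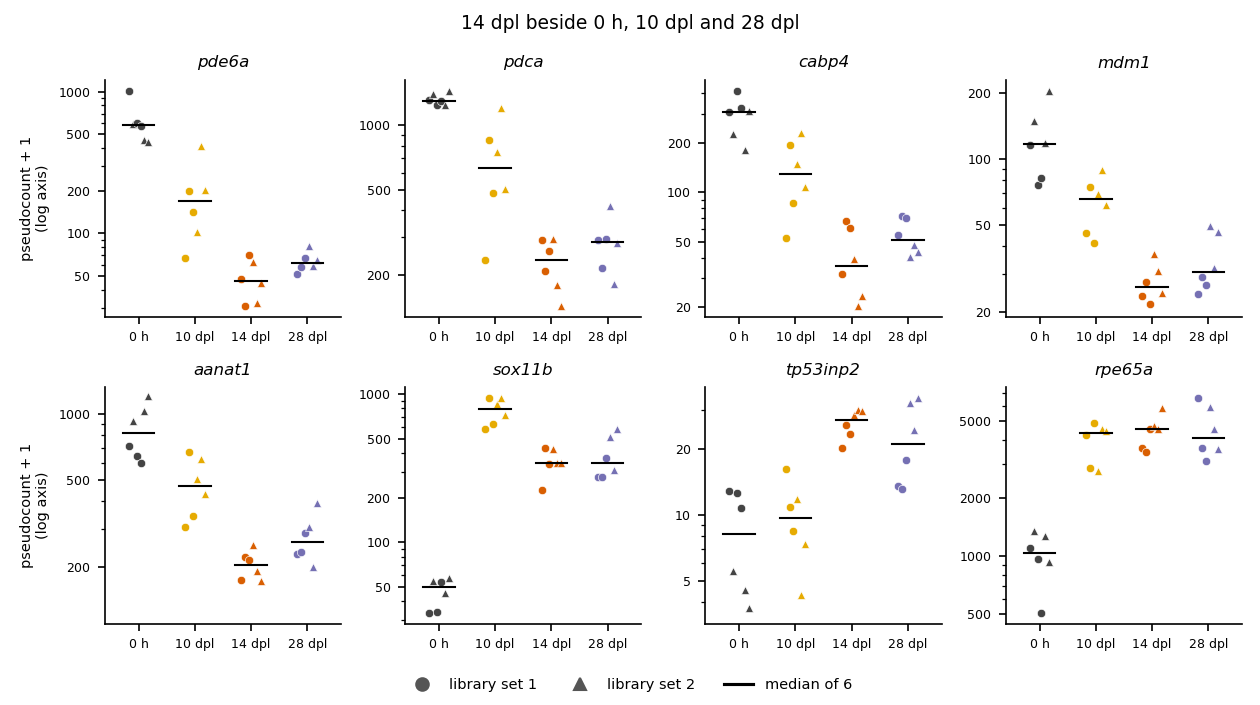
Pseudocount plus 1 (y axis, log scale) of 8 genes in each of the 6 libraries at 0 h, 10 dpl, 14 dpl and 28 dpl, with the library set by symbol and the median of 6 as a bar. The PR genes pde6a, pdca and cabp4, the microtubule-binding gene mdm1 and the enzyme aanat1 are lower at 14 than at 10 dpl. The gene tp53inp2 is higher, sox11b stays above its 0 h range, and rpe65a lies at similar levels from 10 to 28 dpl.

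Several genes of the pigment epithelium were higher, and all but 1 of the calls in these lists were in that direction. Of 27 tested visual cycle and pigment epithelium genes, 7 were higher (25.9%) and 1 lower (3.7%), against 5.59% and 2.31% of all genes. Of 16 melanosome and pigment cell genes 6 were higher (37.5%) and 0 lower, with a median log2 fold change of 0.89. The first list also holds melanosome genes such as pmela and tyrp1b, so these counts may not be separate. The isomerase rpe65a, which renews 11-cis retinal, was 3452 to 5871 with a median of 4549 at 14 dpl and 507 to 1343 with a median of 1038 at 0 h (log2 fold change 2.17 ± 0.23, adjusted p = 7.54e-10). The retinol dehydrogenase rdh5 was 144 to 264 with a median of 234 at 14 dpl and 11.63 to 87.3 with a median of 52.58 at 0 h (log2 fold change 2.14 ± 0.35, adjusted p = 1.54e-05). The melanosome enzyme tyrp1b was 668 to 1599 with a median of 1372 at 14 dpl and 192 to 376 with a median of 286 at 0 h (log2 fold change 2.19 ± 0.32, adjusted p = 2.13e-06), with the lowest 14 dpl value in replicate 2. None of these 3 overlapped between the groups. The retinal G protein-coupled receptor rgra changed by 1.11 ± 0.19 (adjusted p = 3.2e-05), the premelanosome protein pmela by 1.08 ± 0.24 (adjusted p = 0.00162) and the calcium exchanger of melanosomes slc24a5 by 2.27 ± 0.54 (adjusted p = 0.00349). The retinol carrier rbp4l, also in the first list, changed by 0.88 ± 0.23 (adjusted p = 0.00978), a call lost with either library set alone. Whether the signal of rbp4l came from the pigment epithelium or from other cells was not tested.

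The 1 lower gene of these lists belongs to PRs. The retinol dehydrogenase rdh8b, an enzyme type that PRs use to reduce all-trans retinal, was 42.1 to 69.0 with a median of 58.1 at 14 dpl and 122 to 191 with a median of 158 at 0 h (log2 fold change -1.46 ± 0.28, adjusted p = 0.000244). The MG and pigment epithelium chaperone rlbp1a was 676 to 1051 with a median of 813 at 14 dpl and 637 to 836 with a median of 784 at 0 h (log2 fold change 0.13 ± 0.27, adjusted p = 0.838). The 5 markers of the pigment epithelium summed to 4748 to 8193 at 14 dpl and 852 to 2072 at 0 h, and 4 of the 5 were higher. Fish of both groups were albino, and whether the amount of pigment epithelium left on the retina moved with time-point was not tested.

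Clock genes changed in both directions. Of 49 tested, 13 were higher (26.5%) and 3 lower (6.1%), against 5.59% and 2.31% of all genes. The median log2 fold change was -0.01. The period gene per2, which light induces in zebrafish, was 267 to 358 with a median of 295 at 14 dpl and 55.7 to 82.2 with a median of 71.3 at 0 h (log2 fold change 2.13 ± 0.16, adjusted p = 5.51e-14). The output regulator tefa was 569.6 to 811 with a median of 729 at 14 dpl and 105 to 233 with a median of 179.9 at 0 h (log2 fold change 2.08 ± 0.12, adjusted p = 4.78e-18), and all 6 libraries of either gene lay above all at 0 h. The cryptochrome cry1bb, a repressor type of the clock, was 434 to 639 with a median of 481 at 14 dpl and 59.2 to 176 with a median of 86.2 at 0 h (log2 fold change 2.39 ± 0.19, adjusted p = 2.2e-13). The light-induced cry-dash was 26.3 to 63.7 with a median of 49.5 at 14 dpl and 1.1 to 9.78 with a median of 3.88 at 0 h (log2 fold change 3.24 ± 0.29, adjusted p = 1.23e-11). In 10 of the 49, these 4 among them, all 14 dpl libraries lay above all 0 h libraries, against 3.67% of all genes. The repressors nr1d1, nfil3, nr1d4b, bhlhe41 and ciarta were higher by 2.55, 2.35, 2.33, 1.78 and 2.08, and arntl2, a partner of the Clock protein, by 2.24. On the other side, per1b was 95.3 to 396 with a median of 228 at 14 dpl and 311 to 849 with a median of 567 at 0 h (log2 fold change -1.42 ± 0.27, adjusted p = 0.000234). The retinal enzyme of melatonin synthesis aanat1 was 173 to 253 with a median of 203 at 14 dpl and 597 to 1203 with a median of 819.7 at 0 h (log2 fold change -2.02 ± 0.26, adjusted p = 7.59e-08). The hour of day at which either group was collected is not given in the sources used here.

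Among immediate early genes, which neurons switch on with activity, most of those that passed were lower. Of 27 tested, 6 were lower (22.2%) and 2 higher (7.4%), against 2.31% and 5.59% of all genes. The median log2 fold change was -0.52. The zinc finger gene egr4 was 6.09 to 13.8 with a median of 10.3 at 14 dpl and 35.3 to 325 with a median of 144 at 0 h (log2 fold change -3.55 ± 0.45, adjusted p = 5.89e-08), with no overlap. The activity-dependent factor npas4a was 5.21 to 19.6 with a median of 11.55 at 14 dpl and 10.8 to 420.3 with a median of 168 at 0 h (log2 fold change -3.01 ± 0.64, adjusted p = 0.000935). Another such gene, ier2, was 38.8 to 66.6 with a median of 53.8 at 14 dpl and 92.4 to 460.3 with a median of 258 at 0 h (log2 fold change -2.03 ± 0.44, adjusted p = 0.00115). All 3 genes were higher in the 0 h libraries of set 2 than in those of set 1. For egr4 the 0 h values were 35.3, 66.7 and 82.7 in set 1 and 206, 282 and 325 in set 2. The fitted log2 fold changes were -2.62 in set 1 and -4.48 in set 2 for egr4 and -1.17 in set 1 and -4.86 in set 2 for npas4a, and the difference between sets did not pass for either (adjusted p = 0.346 for egr4 and 0.205 for npas4a, limma). In number, 1 member was lower with set 1 alone and 6 with set 2 alone. The stress-induced AP-1 genes atf3 and jun were higher, without overlap. The values of atf3 were 158 to 299 with a median of 202 at 14 dpl and 19.6 to 50.7 with a median of 34.5 at 0 h (log2 fold change 2.55 ± 0.32, adjusted p = 5.89e-08). Those of jun were 117 to 214 with a median of 143 at 14 dpl and 37.0 to 63.5 with a median of 43.9 at 0 h (log2 fold change 1.68 ± 0.32, adjusted p = 0.000177).

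**Figure D4:**
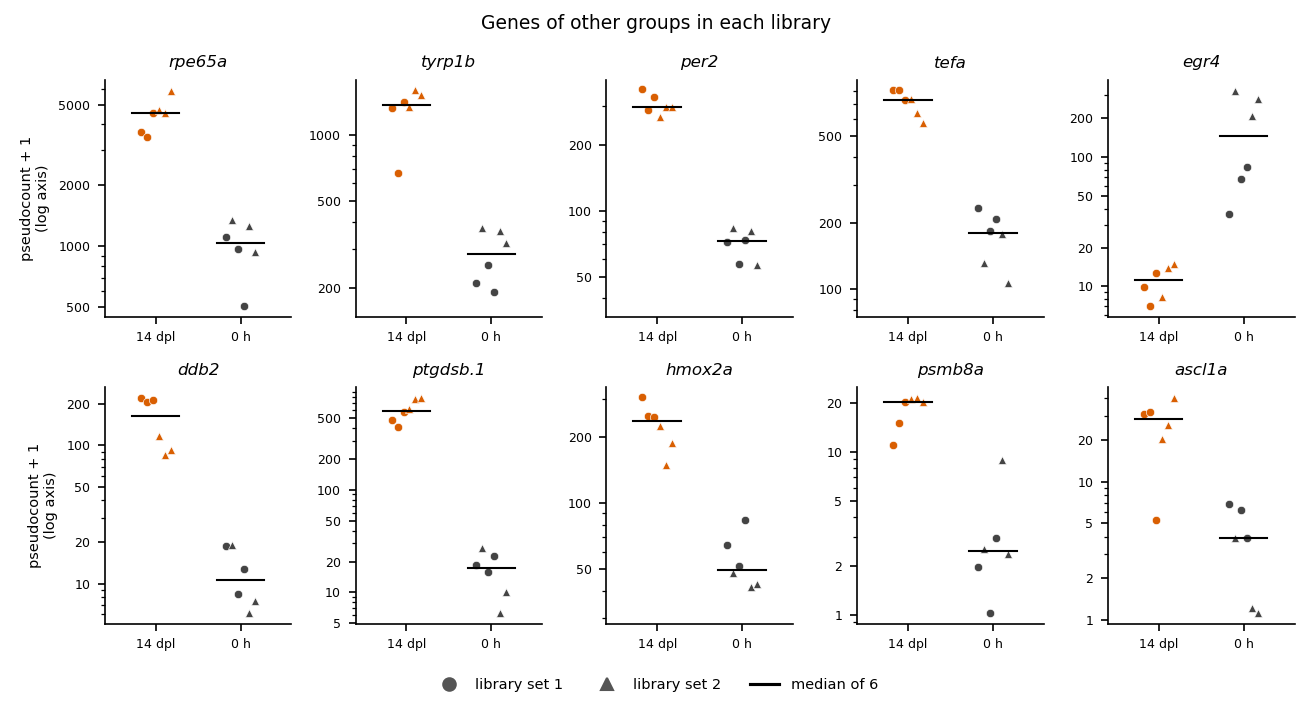
Pseudocount plus 1 (y axis, log scale) of 10 genes of other groups in each of the 6 libraries at 14 dpl and the 6 at 0 h, with the library set by symbol and the median of 6 as a bar. The groups do not overlap in 9 of the 10 genes, and in ascl1a 1 library at 14 dpl lies within the 0 h range.

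Genes of DNA damage, protein folding and oxidative defence had more members higher than lower. Of 35 DNA damage and p53 target genes, 8 were higher (22.9%) and 0 lower, against 5.59% and 2.31% of all genes. The ultraviolet damage sensor ddb2 was 83.4 to 219 with a median of 161 at 14 dpl and 5.16 to 17.9 with a median of 9.56 at 0 h, 13.1-fold on this scale. Its partner in nucleotide excision repair, xpc, was 93.6 to 266 with a median of 195 at 14 dpl and 60.3 to 119.3 with a median of 72.8 at 0 h (log2 fold change 1.17 ± 0.29, adjusted p = 0.00522). The cell-cycle inhibitor cdkn1a, a p53 target, was 28.0 to 59.6 with a median of 39.6 at 14 dpl and 3.90 to 20.4 with a median of 9.33 at 0 h (log2 fold change 2.02 ± 0.35, adjusted p = 4.8e-05). Of these 3, xpc alone had overlapping groups. The repair endonuclease apex1 was 108 to 168 with a median of 130.5 at 14 dpl and 34.3 to 78.8 with a median of 45.5 at 0 h (log2 fold change 1.38 ± 0.26, adjusted p = 0.000146). With 1 library left out the count of 8 became 4 to 7. It was 5 without 14 dpl replicate 4 or 5 or 0 h replicate 5, and 4 without 14 dpl replicate 6 or 0 h replicate 6. Without 14 dpl replicate 3, 1 member was lower. After median-of-ratios rescaling, and also with totals taken without the rod list (chosen after the data were seen), 5 were higher and 1 lower.

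Of 38 heat shock genes, 11 were higher (28.9%) and 0 lower, against 5.59% and 2.31% of all genes. The mitochondrial chaperonin hspd1 was 218 to 530.4 with a median of 328 at 14 dpl and 106 to 143 with a median of 125 at 0 h (log2 fold change 1.41 ± 0.20, adjusted p = 1.13e-06). Its lid hspe1 was 272 to 599.9 with a median of 381 at 14 dpl and 122 to 153 with a median of 141 at 0 h (log2 fold change 1.46 ± 0.21, adjusted p = 1.07e-06). All 14 dpl libraries of both lay above all 0 h libraries. The co-chaperone bag3 was 21.2 to 46.5 with a median of 37.0 at 14 dpl and 0.957 to 15.0 with a median of 9.53 at 0 h (log2 fold change 2.18 ± 0.39, adjusted p = 7.04e-05). The inducible hsp70l was 35.5 to 210.0 with a median of 158 at 14 dpl and 14.8 to 36.5 with a median of 25.7 at 0 h (log2 fold change 2.14 ± 0.57, adjusted p = 0.00977), with overlap. The count of 11 was 7 without 14 dpl replicate 3 or 4, 0 h replicate 5 or the unnumbered 0 h library of set 1, 4 in set 1 alone and 8 in set 2 alone, and 1 gene was lower without replicate 2 of either group. After median-of-ratios rescaling 7 were higher and 1 lower, and 5 were higher and 1 lower with totals taken without the rod list. Of 38 genes of endoplasmic reticulum stress, 6 were higher (15.8%, against 5.59% of all genes) and 0 lower. The lumenal chaperone hspa5 was 455 to 804 with a median of 665 at 14 dpl and 192 to 318 with a median of 249 at 0 h (log2 fold change 1.37 ± 0.24, adjusted p = 6.52e-05). The transcription factor xbp1, which drives the unfolded protein response, was 668 to 1065 with a median of 806 at 14 dpl and 278 to 504 with a median of 401 at 0 h (log2 fold change 1.08 ± 0.20, adjusted p = 0.000123).

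Of 49 genes of oxidative defence and iron, 12 were higher (24.5%) and 0 lower, against 5.59% and 2.31% of all genes. Without the unnumbered 0 h library of set 1, 1 was lower. Thioredoxin (txn), a reducing protein, was 31.2 to 131 with a median of 112 at 14 dpl and 3.24 to 17.7 with a median of 11.53 at 0 h (log2 fold change 2.97 ± 0.41, adjusted p = 4.88e-07). The peroxidase prdx1, which thioredoxin reduces, was 16 to 72.6 with a median of 36.06 at 14 dpl and 2.16 to 13.9 with a median of 12 at 0 h (log2 fold change 1.86 ± 0.38, adjusted p = 0.000563). The haem-degrading oxygenase hmox2a was 149 to 306 with a median of 236 at 14 dpl and 40.5 to 82.8 with a median of 48.9 at 0 h (log2 fold change 2.05 ± 0.16, adjusted p = 5.3e-14). None of these 3 had overlapping groups. Biliverdin reductase blvra, the next enzyme after haem oxygenase, was 8.38 to 21.4 with a median of 14.5 at 14 dpl and 0.0191 to 2.93 with a median of 1.79 at 0 h (log2 fold change 2.6 ± 0.36, adjusted p = 5.04e-07). Among 18 genes of prostaglandin synthesis, 3 were higher (16.7%) and 1 lower (5.6%), against 5.59% and 2.31% of all genes. The lower was pla2g12b, whose call was lost without 0 h replicate 2. The second synthase copy ptgdsb.2 was 626 to 1071 with a median of 794 at 14 dpl and 118 to 216 with a median of 154 at 0 h (log2 fold change 2.38 ± 0.35, adjusted p = 2.29e-06), with no overlap, as in ptgdsb.1.

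Immune genes were higher in part. Of 46 microglia and macrophage genes, 10 were higher (21.7%) and 0 lower, against 5.59% and 2.31% of all genes. The median log2 fold change was 0.77. Lysozyme (lyz) was 16.1 to 54.2 with a median of 19.9 at 14 dpl and 1.5 to 12.8 with a median of 5.04 at 0 h (log2 fold change 2.17 ± 0.38, adjusted p = 6.27e-05), and its highest value was in 14 dpl replicate 2. The galectin lgals9l1 was 31.0 to 64.6 with a median of 40.7 at 14 dpl and 8.49 to 24.6 with a median of 10.1 at 0 h (log2 fold change 1.81 ± 0.38, adjusted p = 0.000685). The lipoprotein gene apoc1l was 261 to 395 with a median of 314 at 14 dpl and 76.0 to 149 with a median of 117 at 0 h (log2 fold change 1.51 ± 0.33, adjusted p = 0.00107). All 14 dpl libraries of these 3 genes lay above all 0 h libraries. The invariant chain cd74b, which escorts class II molecules, was 66.2 to 105 with a median of 85.3 at 14 dpl and 22.9 to 41.2 with a median of 26.8 at 0 h (log2 fold change 1.47 ± 0.37, adjusted p = 0.00609). The microglial apolipoprotein apoeb was 1972 to 4077 with a median of 2507 at 14 dpl and 991 to 2112 with a median of 1299 at 0 h (log2 fold change 0.94 ± 0.18, adjusted p = 0.000207). The macrophage pore protein mpeg1.1 was 14.0 to 30.9 with a median of 21.5 at 14 dpl and 6.79 to 13.7 with a median of 10.7 at 0 h (log2 fold change 0.98 ± 0.42, adjusted p = 0.159). It did not pass, although all 14 dpl libraries lay above all 0 h libraries. The receptor csf1ra, which microglia need, was 0 to 5.47 with a median of 0.643 at 14 dpl and 1.62 to 5.90 with a median of 2.85 at 0 h (log2 fold change -0.89 ± 0.47, adjusted p = 0.272). The 4 microglia markers summed to 1995 to 4098 at 14 dpl and 1002 to 2132 at 0 h, mostly through apoeb, with 1 of 4 called, and c1qa, a defining complement gene of microglia, did not exceed 3.16 at 14 dpl or 3.12 at 0 h. What part a change in the number of microglia had in these lists was not tested.

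Some genes of antigen presentation were higher. Of 37 interferon and antigen presentation genes, 9 were higher (24.3%) and 0 lower, against 5.59% and 2.31% of all genes. The list shares cd74b with the microglia list, so the counts of these lists are not separate. The immunoproteasome subunit psmb8a was 10.1 to 20.5 with a median of 19.3 at 14 dpl and 0.0229 to 7.99 with a median of 1.45 at 0 h (log2 fold change 2.76 ± 0.46, adjusted p = 1.9e-05). A second subunit, psmb12, was 10.6 to 23.4 with a median of 15.0 at 14 dpl and 1.93 to 7.34 with a median of 3.12 at 0 h (log2 fold change 1.80 ± 0.39, adjusted p = 0.00114). Such subunits cut peptides for class I molecules, and neither gene had overlapping groups. The class I light chain b2m was 77.7 to 191 with a median of 147 at 14 dpl and 23 to 66.7 with a median of 41.0 at 0 h (log2 fold change 1.69 ± 0.39, adjusted p = 0.00227). The class I heavy chain mhc1zba was 80.4 to 107 with a median of 89.8 at 14 dpl and 23.3 to 31.5 with a median of 28.2 at 0 h (log2 fold change 1.68 ± 0.24, adjusted p = 1.13e-06). Of 30 cytokine and chemokine genes, 2 were higher (6.7%, near the 5.59% of all genes) and 0 lower. Of these, cxcl12b, which guides cells through Cxcr4, was 74.6 to 205 with a median of 112 at 14 dpl and 12.1 to 67.7 with a median of 39.7 at 0 h (log2 fold change 1.82 ± 0.28, adjusted p = 6.59e-06). Without 0 h replicate 5 the count of 2 was 1. Of 7 neutrophil genes 1 was higher (14.3%, against 5.59% of all genes), the same lyz that is in the microglia list. Of 10 genes of T cells and other leukocytes 1 was lower (10%, against 2.31% of all genes).

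Part of the genes of dividing cells and newborn neurons were higher. Of 53 DNA replication genes, 9 were higher (17%) and 0 lower, against 5.59% and 2.31% of all genes. Of 55 mitosis genes 10 were higher (18.2%) and 1 lower (1.8%), hmmr. Its call was lost without 14 dpl replicate 5 or 6, 0 h replicate 2, 5 or 6 or the unnumbered 0 h library of set 1. The replicative helicase genes mcm2, mcm5 and mcm7 changed by 2.82 ± 0.51 (adjusted p = 8.74e-05), 1.83 ± 0.46 (adjusted p = 0.00664) and 1.54 ± 0.21 (adjusted p = 4.75e-07). The values of mcm7 were 114 to 178 with a median of 137 at 14 dpl and 25.6 to 62.2 with a median of 51.9 at 0 h, with no overlap. The replication clamp pcna was 169 to 322 with a median of 225 at 14 dpl and 98.9 to 158 with a median of 124 at 0 h (log2 fold change 0.86 ± 0.18, adjusted p = 0.000781). The nucleotide enzyme tyms was 8.34 to 15.4 with a median of 11.2 at 14 dpl and 0.0135 to 2.96 with a median of 1.12 at 0 h (log2 fold change 2.69 ± 0.58, adjusted p = 0.00119). The chromatin remodeller hells was 48 to 76.6 with a median of 66.7 at 14 dpl and 8.73 to 23.9 with a median of 14.3 at 0 h (log2 fold change 2.1 ± 0.31, adjusted p = 1.95e-06). In these 3 genes the groups did not overlap. The spindle protein nusap1 was 29.9 to 41.0 with a median of 38.2 at 14 dpl and 6.04 to 17.8 with a median of 9.63 at 0 h (log2 fold change 1.76 ± 0.34, adjusted p = 0.000244). Of 32 rod progenitor and neurogenesis genes, 6 were higher (18.8%) and 2 lower (6.2%), against 5.59% and 2.31% of all genes. The lower were rx1 and rx2. The cyclin ccnd1 was 162 to 329.5 with a median of 208 at 14 dpl and 40.6 to 83.3 with a median of 56.0 at 0 h (log2 fold change 1.91 ± 0.19, adjusted p = 1.31e-10). The tubulin regulator stmn1a was 45.3 to 94.4 with a median of 72.5 at 14 dpl and 6.64 to 28.4 with a median of 15.6 at 0 h (log2 fold change 2.05 ± 0.37, adjusted p = 8.74e-05). The chromatin protein hmgn2 was 206 to 377 with a median of 325 at 14 dpl and 68.5 to 167 with a median of 130.0 at 0 h (log2 fold change 1.34 ± 0.25, adjusted p = 0.000134). Each of the 3 was higher in all 14 dpl libraries than in any at 0 h.

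Few MG genes passed the test. Of 45, 2 were higher (4.4%, against 5.59% of all genes) and 0 lower, 1 of them ptgdsb.1, with a median log2 fold change of 0.06. The intermediate filament gfap, a mark of gliosis, was 22 to 40.5 with a median of 33.2 at 14 dpl and 34.2 to 61.2 with a median of 37.4 at 0 h (log2 fold change -0.44 ± 0.31, adjusted p = 0.441). Glutamine synthetase glula was 1720 to 2363 with a median of 1788 at 14 dpl and 1638 to 2773 with a median of 2261 at 0 h (log2 fold change -0.20 ± 0.22, adjusted p = 0.649). The 4 MG markers summed to 3036 to 3904 at 14 dpl and 3387 to 4163 at 0 h. Of 41 genes known from MG reprogramming, 7 were higher (17.1%) and 0 lower. This list and the rod progenitor list had the same highest log2 fold change, 2.92, that of sox11b, so the 2 counts are not separate. The proneural factor ascl1a was 4.24 to 39.4 with a median of 27.2 at 14 dpl and 0.122 to 5.90 with a median of 2.91 at 0 h (log2 fold change 2.81 ± 0.58, adjusted p = 0.00066), with 1 library at 14 dpl inside the 0 h range. With library set 1 alone its call was lost (log2 fold change 1.64, adjusted p = 0.254 in limma). Its fitted change in set 2 was 3.98, and the difference between sets did not pass (adjusted p = 0.375, limma). The neurogenic factor sox11b was 226 to 435 with a median of 341 at 14 dpl and 32.3 to 56.6 with a median of 48.6 at 0 h (log2 fold change 2.92 ± 0.27, adjusted p = 1.43e-11). The zinc finger gene insm1a was 32.6 to 59.9 with a median of 41.2 at 14 dpl and 4.85 to 13.7 with a median of 8.52 at 0 h (log2 fold change 2.28 ± 0.40, adjusted p = 6.14e-05). Newborn neurons also use both, and neither had overlapping groups. The count of 7 was 4 without 14 dpl replicate 4, 0 h replicate 5 or the unnumbered 0 h library of set 1, and of 26 Notch pathway genes 0 were called.

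**Figure D5:**
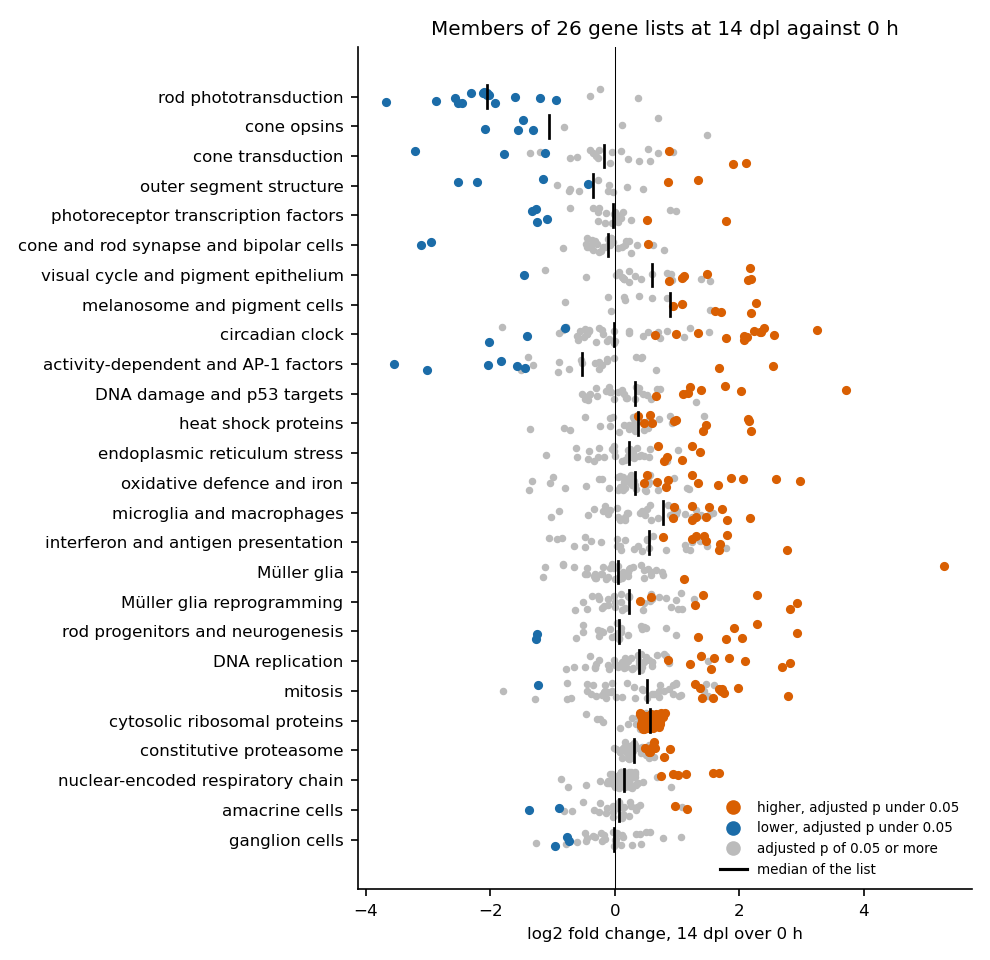
Log2 fold change at 14 dpl over 0 h (x axis) of the tested members of 26 gene lists (rows), 1 point a gene, coloured where the adjusted p was under 0.05, with the list's median as a bar. Rod genes lie furthest to the left, and the stress, immune, replication and ribosomal lists hold few or no genes called lower. MG genes centre on 0, with 2 called higher, of which ptgdsb.1 lies furthest to the right.

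Most ribosomal protein genes were higher by a small amount. Of 86 cytosolic ribosomal protein genes, 68 were higher (79.1%) and 0 lower, against 5.59% of all genes, with a median log2 fold change of 0.56 and 0 members past 2-fold. The large subunit gene rpl15 was 1022 to 2121 with a median of 1452 at 14 dpl and 708 to 1131 with a median of 803 at 0 h (log2 fold change 0.75 ± 0.14, adjusted p = 0.00025). The small subunit gene rps13 was 751 to 1023 with a median of 889.7 at 14 dpl and 371 to 719 with a median of 522 at 0 h (log2 fold change 0.74 ± 0.15, adjusted p = 0.00045). The median was 0.36 in set 1 and 0.77 in set 2, a difference that was not tested, and 6 members were higher in set 1 alone against 57 in set 2 alone. After median-of-ratios rescaling 55 were higher, and 56 with totals taken without the rod list, a setting chosen after the data were seen. Of 45 proteasome genes, 9 were higher (20%) and 0 lower. The catalytic core gene psmb1 was 268 to 344 with a median of 292 at 14 dpl and 107 to 207 with a median of 168 at 0 h (log2 fold change 0.88 ± 0.17, adjusted p = 0.000161). The count of 9 was 5 without 14 dpl replicate 4 or 0 h replicate 5, 4 without the unnumbered 0 h library of set 1, and 5 and 4 under the same 2 rescalings.

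Of 85 nuclear-encoded respiratory chain genes, 6 were higher (7.1%, against 5.59% of all genes) and 0 lower. The flavoprotein of succinate dehydrogenase, sdha, was 702 to 1437 with a median of 1044 at 14 dpl and 274 to 429 with a median of 323 at 0 h (log2 fold change 1.58 ± 0.17, adjusted p = 7.54e-10), with no overlap. Its partner sdhb changed by 1.14 ± 0.16 (adjusted p = 1.05e-06) and the complex I subunit ndufv1 by 1.02 ± 0.13 (adjusted p = 4.41e-08). Of 45 fatty acid oxidation genes, 5 were higher and 0 lower, a share above the 5.59% of all genes that were higher. The dehydrogenase of very long chains, acadvl, was 32 to 77.1 with a median of 39.9 at 14 dpl and 17.2 to 21.6 with a median of 17.8 at 0 h (log2 fold change 1.2 ± 0.24, adjusted p = 0.000466). Of 42 glycolysis genes, 2 were higher (4.8%) and 3 lower (7.1%), against 5.59% and 2.31% of all genes. The enolase copies differed in direction, with eno1b and eno2 at -1.03 ± 0.16 (adjusted p = 6.33e-06) and -0.77 ± 0.15 (adjusted p = 0.000276) and eno3, which muscle also makes, at 1.23 ± 0.26 (adjusted p = 0.000935). The value of eno3 was highest, 421, in 14 dpl replicate 3, the library with the most muscle marker signal, and 169 to 309 in the other 14 dpl libraries, against 49.0 to 233 at 0 h. The part of muscle in it was not tested. Of 33 cholesterol synthesis genes, 0 were higher and 3 lower (9.1%, against 2.31% of all genes). The rate-limiting reductase of that path, hmgcra, was 14.9 to 48.6 with a median of 21.4 at 14 dpl and 77.0 to 124 with a median of 91.7 at 0 h (log2 fold change -1.90 ± 0.29, adjusted p = 3.24e-06), with no overlap.

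Of 34 amacrine cell genes, 2 were higher (5.9%) and 2 lower (5.9%), against 5.59% and 2.31% of all genes. The peptide gene npy was 19.3 to 46.4 with a median of 25.4 at 14 dpl and 48.3 to 92.5 with a median of 79.4 at 0 h (log2 fold change -1.38 ± 0.27, adjusted p = 0.000259). The count of 2 lower was 1 without 0 h replicate 3, 0 h replicate 5 or the unnumbered 0 h library of set 2. Of 33 ganglion cell genes 3 were lower (9.1%) and 0 higher, against 2.31% and 5.59% of all genes. Past 2-fold 0 were lower, and without 14 dpl replicate 2, 1 was higher by the adjusted p. Of 16 horizontal cell genes, 1 was lower (6.2%) and 1 higher (6.2%), against 2.31% and 5.59% of all genes. The higher was aqp9a, whose call was lost without 14 dpl replicate 4 or 6, 0 h replicate 2 or either unnumbered 0 h library. The lower was esrrb. Its values were 9.26 to 26 with a median of 13.2 at 14 dpl and 28.4 to 72.8 with a median of 47.2 at 0 h (log2 fold change -1.71 ± 0.32, adjusted p = 0.000135), with no overlap. Of the 4 horizontal cell markers 0 were called, and whether the signal of esrrb came from horizontal cells was not tested. The markers of amacrine cells summed to 2142 to 2330 at 14 dpl and 1846 to 2257 at 0 h. Those of ganglion cells summed to 770.0 to 954 at 14 dpl and 877 to 1168 at 0 h. Those of horizontal cells summed to 375 to 537 at 14 dpl and 372 to 526 at 0 h, so the sums of all 3 overlapped between the groups. Of 10 potassium and HCN channel genes, 13 retinal fatty acid-binding protein genes and 14 lens genes 0 were called in each list.

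Did the 2 library sets give the same change? In a model with a set term for each time-point, 4 of 11395 genes differed (0.0351%), with 1359 at an unadjusted p under 0.05. The fitted change of all 4 was above 0 in set 1 and below 0 in set 2. Differences between sets were measured less firmly than the change itself, with standard errors of 0.48 against 0.28 for rho and 0.80 against 0.45 for egr4. The low count therefore cannot show that the sets agreed in the other genes. The difference, set 2 minus set 1, was -4.65 ± 0.77 (adjusted p = 0.00172) for rasa4, a regulator of Ras, -4.10 ± 0.84 (adjusted p = 0.0467) for the transcription factor tfcp2l1, -3.66 ± 0.58 (adjusted p = 0.00172) for the stress gene gadd45ga and -3.55 ± 0.59 (adjusted p = 0.00172) for the dehydrogenase dhrs12.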

How the data were processed

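Retinal RNA had been made into 3′ mRNA-seq libraries (QuantSeq), and the values used are those deposited by the authors: 1 signal value per gene and library, a pseudocount that edgeR computed from HTSeq read counts after STAR alignment to the build written as dR10. Tool versions are not given in the sources used here. Pseudocounts keep no sequencing depth, so counting error could not be given, and how reads shared by gene copies were counted is not given. The deposited tables of the authors' own pairwise comparisons (log2 fold changes, p-values and FDR) were not used. Of 15245 gene symbols, 12 that a spreadsheet had turned into dates (0.128% of signal) were left out.

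Genes that reached 5 in 6 or more libraries were fitted in limma 3.58.1 (R 4.3.3) on log2(value + 1), with all 48 libraries, terms for time-point and library set, and eBayes with trend (39 residual degrees of freedom). Adding 1 understates the change of low genes. The standard error had a median of 0.325. P-values were adjusted by Benjamini-Hochberg over 11395 genes. Replicates are single fish by the labels. In simulated data for the 14 dpl against 0 h comparison over 11395 genes, 46%, 68%, 80% and 94% of genes changed by 1, 1.5, 2 and 3 log2 units were called, 50 genes a size, with 10 false calls. The simulated noise was normal and independent between genes, and it did not copy the exact zeros of some real libraries. Fewer genes were changed in the simulation than the 900 called by the adjusted p in the real comparison, and the Benjamini-Hochberg cut-off depends on that number. Shares and false calls in the real libraries may therefore differ.

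The members and the 46 gene lists were chosen with earlier results of these data known. Genes were named by rule: those the study names for the light transcriptome, the 10 largest rises and falls of the same sign in both sets, up to 4 called members of each list by size of change (where none passed, up to 2 of highest level), and up to 5 a direction by adjusted p against 10 and 28 dpl. Some that the rule names are left out, among them genes whose call rested on 1 library, 1 gene among the largest rises is not reported here, and other members of the lists were named after their values were seen. Alternatives were other pseudocounts, filters, scalings, call rules and eBayes settings, fewer libraries, each set alone, a replicate block and each library left out. Rescaling to totals without the rod list, and swapping the sets of the 2 unnumbered 0 h libraries, were chosen after seeing the data.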

Additional observations from a re-analysis of the deposited data

Results flagged for a closer look

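In each of 290 groups of 6 libraries (145 of the genes described, at 14 dpl and at 0 h), the most extreme library was compared with the others by Dixon's ratio, which by chance marks about 1 group in 20, and 19 groups were marked. The unnumbered library of set 1 accounted for the 0 h marks in apoeb (2112 against 991 to 1368 in the other 5 libraries), csf1ra (5.90 against 1.62 to 3.17), lgals9l1 (24.6 against 8.49 to 13.8), pde6a (1012 against 442 to 595), rcvrn3 (714 against 424 to 499) and saga (961 against 316 to 445), each time as the highest. The highest 0 h value was in replicate 3 for fam213b (1.97 against 0 to 0.036), nr1d1 (32.2 against 8.25 to 13.8) and opn1mw3 (3586 against 1428 to 1982), and in replicate 5 for opn1lw2 (4530 against 264 to 1859) and psmb8a (7.99 against 0.0229 to 1.94). For mcm7, 0 h replicate 6 was the lowest (25.6 against 50.0 to 62.2).

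At 14 dpl, replicate 6 was highest for opn1mw3 (1335 against 235 to 575) and opn1mw4 (3001 against 590.0 to 1003) and lowest for rom1b (273 against 537 to 655). Replicate 2 was highest for lyz (54.2 against 16 to 30.2) and lowest for tyrp1b (667 against 1327 to 1599). Replicate 4 was highest for esrrb (26 against 9.26 to 14.7), and replicate 1 for glula (2363 against 1720 to 1884).

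The change at 14 dpl against 0 h differed between the library sets in 4 genes by the interaction term of limma. Set 2 minus set 1 was -3.55 for dhrs12 (-0.43 in set 2 and 3.11 in set 1, adjusted p = 0.00172), -3.66 for gadd45ga (-2.14 and 1.52, adjusted p = 0.00172), -4.65 for rasa4 (-2.15 and 2.5, adjusted p = 0.00172) and -4.10 for tfcp2l1 (-2.31 and 1.79, adjusted p = 0.0467).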

How the results depend on the processing

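The 283 genes higher at 14 dpl were 637 with no fold minimum and 255 to 291 with 1 library left out. The 182 lower were 76 in library set 1 alone, 287 in set 2 alone, 99 at adjusted p under 0.01 with 2-fold, and 130 to 230 with 1 library left out. The 26 genes that differed between 14 and 10 dpl were 12 after upper quartile rescaling, 13 without the library set term, 7 at adjusted p under 0.01 with 2-fold, and 10 to 40 with 1 library left out. Between 14 and 28 dpl 0 genes became 0 to 2 with 1 library left out. The 4 genes that differed between sets were 6 at a pseudocount of 5 and 5 with only the 12 libraries, and leaving out libraries was not run for them. The cause of these shifts was not tested. Over all genes the median log2 fold change was 0.036 as deposited, -0.03 after median-of-ratios rescaling and -0.04 without the rod list in the totals, and the calls were 60.9%, 52.2% and 52.2% higher.

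Of 145 genes checked, 127 were called, and 27 alternatives were run. Some genes named above were not in this check or in that by Dixon's ratio, among them nme2b.2 and zgc:73226. The values of zgc:73226 were 175 to 5274 at 14 dpl and 47.3 to 983 at 0 h. A gene that a filter removed was not judged in that alternative. Of the 127, 0 changed direction and 80 kept direction and call in every alternative that held them. The other 47 lost the call in at least 1, all 47 with a set alone, 9 with a library left out. The log2 fold change of gfap, -0.44, was 0.15 in set 2 alone, and that of rgs9a, -0.39, was 0.24 in set 1 alone. With only the 12 libraries, gnat2, nr2e3, opn1lw2 and opn1sw2 also passed.

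Deviations of same-numbered libraries from their set means correlated at 0.016, 0.08, -0.14 and 0.048 over 4 numbers. Those of differently numbered libraries correlated at -0.107 to 0.171. With means of 3 libraries and only 4 numbers, this cannot decide whether the replicate numbers paired the samples. With the replicate block in place of library set, 254 genes were higher, 130 lower, 23 differed from 10 dpl and 0 from 28 dpl, and 11 of the 127 calls were lost. That fit also left out the unnumbered 0 h library of either set, so the effect of the block alone was not tested. Values listed at exactly 0 where other libraries of the group were above 0 numbered 1042 to 2374 in 14 dpl replicates 1, 2, 3 and 5, 0 h replicate 3 and the unnumbered 0 h library of set 1, against 0 in the other 6 libraries, so folds of low genes are less firm. Depth is unknown, and with 6 retinas a group many log2 changes near 1 would not be called.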
